A study of Drosophila melanogaster with 9 samples.

Results

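The replication-dependent histone genes of Drosophila melanogaster are described here through the 31 gene rows, of 16837 in each library, whose symbols begin with His1:CG, His2A:CG, His2B:CG, His3:CG or His4:CG. They comprise 12 rows for the linker histone H1, 4 for H2A, 7 for H2B, 2 for H3 and 6 for H4. RNA came from fly heads according to the labels, and the flies were virgin females aged 10 days; each of 3 genotypes has 3 libraries. The Chd1-deficient flies (title Chd1[-/-]) are labelled as lacking the chromatin remodeller Chd1. The elav>Chd1 flies carry a UAS-Chd1 transgene driven by elav-Gal4, a driver active in neurons, and are labelled Chd1-rescued; the labels leave unsaid whether the deletion is present in them too. The wild-type flies have the title Chd1[WT/WT] and the genotype label wildtype, whereas the design text of the series names no wild type and can be read as listing a rescued group beside elav>Chd1; the labels do not settle this. How many flies went into a library, and whether a genotype's libraries were made from different flies, is not given, so the p-values below rest on the spread among these libraries alone, and that spread may be technical.

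Core histones H2A, H2B, H3 and H4 form the protein spool of the nucleosome, and the linker histone H1 binds the DNA where it enters and leaves that spool. In flies the genes for all of them lie in 1 tandem array, in which a unit holding a gene for each histone is repeated many times. The genes are transcribed mainly during S phase, in a nuclear compartment called the histone locus body, and their messenger RNAs normally end in a stem-loop bound by the protein Slbp in place of a poly(A) tail. The ovary makes large stores of histone RNA for the early embryo. The labels name total RNA and do not say whether poly(A)+ RNA was selected, a step that would lose most RNA without a tail.

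The Ensembl annotation of BDGP6.54 lists 111 such genes on arm 2L between positions 21416953 and 21541681, a stretch of 124.7 kb: 23 for His1, 20 for His2A, 23 for His2B, 23 for His3 and 22 for His4. All 31 rows matched an annotated gene by symbol, and the other 80 annotated genes were not analysed here. Whether identical transcripts were merged before quantification is not known, so a row may stand for 1 copy or for several, and this bears on each copy level, on the coverage shares and on the comparison of levels between types. Rows therefore covered 52.2% of the His1 genes and 8.70% of the His3 genes. Each annotated copy has a single exon. His1 copies span 1023 bases, His2B copies 595 and His3 copies 529, while His2A copies span 476 to 493 and His4 copies 412 to 528. Each of the 20 His2A copies overlaps an annotated short noncoding RNA on its own strand. Because copies are near-identical, reads can be divided among them in different ways, and the level of a single copy is uncertain. For His1, His2B and His3, whose copies are equal in length, the sum over a type does not depend on that division among its rows. For His2A and His4, whose copies differ in length, the summed TPM can shift with it. The rows were unevenly placed along the array, with 14 of the 27 annotated copies at its low-coordinate end having a row.

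**Figure D1:**
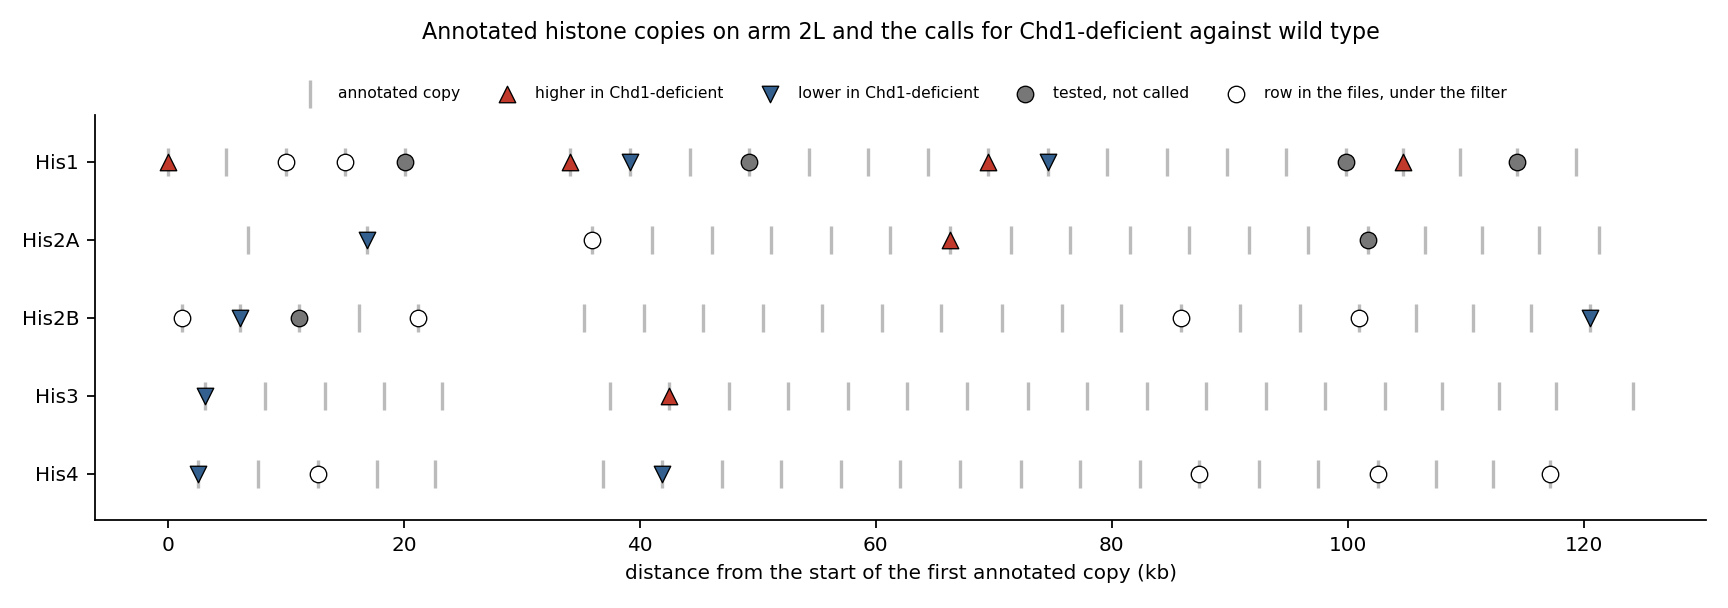
Position of each annotated copy (grey ticks, 111 in all) on arm 2L as distance in kb from the start of the first copy, by histone type. Symbols mark the 31 copies with a row, by whether they were called higher (6), called lower (8) or not called (6) in Chd1-deficient against wild-type libraries, or lay under the filter on low values (11).

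The values are TPM, transcript abundances scaled per transcript length and to a fixed total (999685 to 999850 over the listed genes), so sequencing depth is unknown. Chd1 itself, the targeted gene, stood at 19.5 ± 1.07 TPM in Chd1-deficient libraries, 63.5 ± 0.314 TPM in elav>Chd1 and 101.6 ± 8.12 TPM in wild-type libraries (SD, n = 3 each). Some Chd1 RNA was thus listed in the libraries labelled as deficient, and which stretch of the gene the deletion removes is not given in the labels. The labelled head tissue was checked against markers. In Chd1-deficient, elav>Chd1 and wild-type libraries in turn, 11 ovary markers summed to 12458 to 13067, 18108 to 18405 and 16263 to 17080 TPM, 5 neuronal markers to 141 to 149, 53.9 to 56.5 and 27.0 to 29.9 TPM, 4 muscle markers to 1260 to 1311, 673 to 688 and 221 to 225 TPM, and 9 male germline markers to 231 to 257, 30.7 to 33.3 and 52.2 to 57.1 TPM. No marker of the ovary, neuron or muscle list was at 0 throughout a group, and of the male list only aly was, in elav>Chd1 libraries. The male germline sum includes bam, an early germline gene of both sexes, which went the other way from the rest of that list: it stood at 19.6 to 20.8 TPM in Chd1-deficient, 24.5 to 26.9 TPM in elav>Chd1 and 30.4 to 39.7 TPM in wild-type libraries, while the other 5 tested members were called higher in Chd1-deficient than in wild-type libraries. In the ovary list 8 members were called lower and 3 higher in Chd1-deficient than in wild-type libraries. Among them dhd averaged 905 TPM in Chd1-deficient and 5288 TPM in wild-type libraries. Vm26Aa, the highest member, went the other way, at 8708 and 6243 TPM. The ovary sum depends heavily on such members and does not give the direction of the whole list. Ovary RNA was thus abundant in every library in spite of the label, and none of the 4 marker sums overlapped between the genotypes. Their part in the histone results was not tested, and in such bulk samples fewer cells of a type and less RNA per cell cannot be told apart.

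Histone RNA was lower in Chd1-deficient than in wild-type libraries for each of the 5 types, and elav>Chd1 libraries lay between them on average. The 31 copies together summed to 4096, 3974 and 3942 TPM in the Chd1-deficient libraries, to 4687, 4655 and 4628 TPM in the elav>Chd1 libraries and to 5521, 5348 and 6176 TPM in the wild-type libraries. No library of one genotype reached the range of another. The share of all genes without overlap was not counted, here or for the sums and copies below. The histone total is 0.394% to 0.410% of all TPM in Chd1-deficient libraries, 0.463% to 0.469% in elav>Chd1 and 0.535% to 0.618% in wild-type libraries. On the log2(TPM + 0.5) scale the total was lower by -0.50 in Chd1-deficient than in wild-type libraries (SE 0.05, limma adjusted p = 2.0e-06), against a median of -0.05 for all genes. The middle 50% of all genes ran from -0.48 to 1.12. The total lay just below that span and the His2A sum, at -0.42, inside it.

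On the log2 scale the linker histone showed the largest difference of the 5 sums between Chd1-deficient and wild-type libraries, although in TPM the His2A difference was larger. His1 copies summed to 162, 180.2 and 165 TPM in Chd1-deficient libraries, to 275, 289 and 300.7 TPM in elav>Chd1 libraries and to 442, 428 and 400.2 TPM in wild-type libraries. The 3 genotypes did not overlap, and the Chd1-deficient mean was 39.9% of the wild-type mean. The log2 fold change was -1.32 against wild type (SE 0.05, limma adjusted p = 3.9e-09) and -0.77 against elav>Chd1 (SE 0.05, limma adjusted p = 3.8e-07). The direction rests on His1:CG33837 and His1:CG33816, described below: with only the copies above 0 in all 9 libraries the sum was higher in Chd1-deficient libraries, by 0.60 against wild type (limma adjusted p = 0.0106) and by 0.29 against elav>Chd1 (limma adjusted p = 0.18). This restriction leaves out both copies by construction, for their values of 0 in Chd1-deficient libraries. Other His1 copies with a value of 0 are left out too. These p-values follow a selection on the same values and are no test of the direction.

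H2A and H2B pair with each other in the nucleosome, yet their sums differed in size and in change. His2A copies summed to 3285, 3184 and 3164 TPM in Chd1-deficient libraries, 3704, 3664 and 3616 TPM in elav>Chd1 and 4185, 3982 and 4739 TPM in wild-type libraries. The Chd1-deficient libraries were the lowest and the wild-type ones the highest, with the widest spread, and the log2 fold change between them was -0.42 (SE 0.05, limma adjusted p = 2.3e-05). His2B copies summed to 101, 104 and 103 TPM in Chd1-deficient libraries, 147, 145 and 152 TPM in elav>Chd1 and 197, 201 and 218 TPM in wild-type libraries. His2B thus stood at 50.1% of wild type in Chd1-deficient libraries, with groups well apart, and its log2 fold change was -0.99 (SE 0.04, limma adjusted p = 5.7e-09).

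H3 and H4 form the central tetramer of the nucleosome. His3 copies summed to 16.4, 20.6 and 16.7 TPM in Chd1-deficient libraries, 23.3, 22.8 and 19.6 TPM in elav>Chd1 and 27.2, 29.5 and 28.5 TPM in wild-type libraries. The wild-type libraries were highest, while the ranges of Chd1-deficient and elav>Chd1 overlapped. His4 copies summed to 531, 485 and 493 TPM in Chd1-deficient libraries, 538, 535 and 539.7 TPM in elav>Chd1 and 670.3, 708 and 790.3 TPM in wild-type libraries. Here Chd1-deficient and elav>Chd1 libraries lay close together and both lay below wild type. Against wild type the log2 fold changes in Chd1-deficient libraries were -0.66 for His3 (SE 0.09, limma adjusted p = 5.0e-05) and -0.52 for His4 (SE 0.06, limma adjusted p = 5.1e-06).

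**Figure D2:**
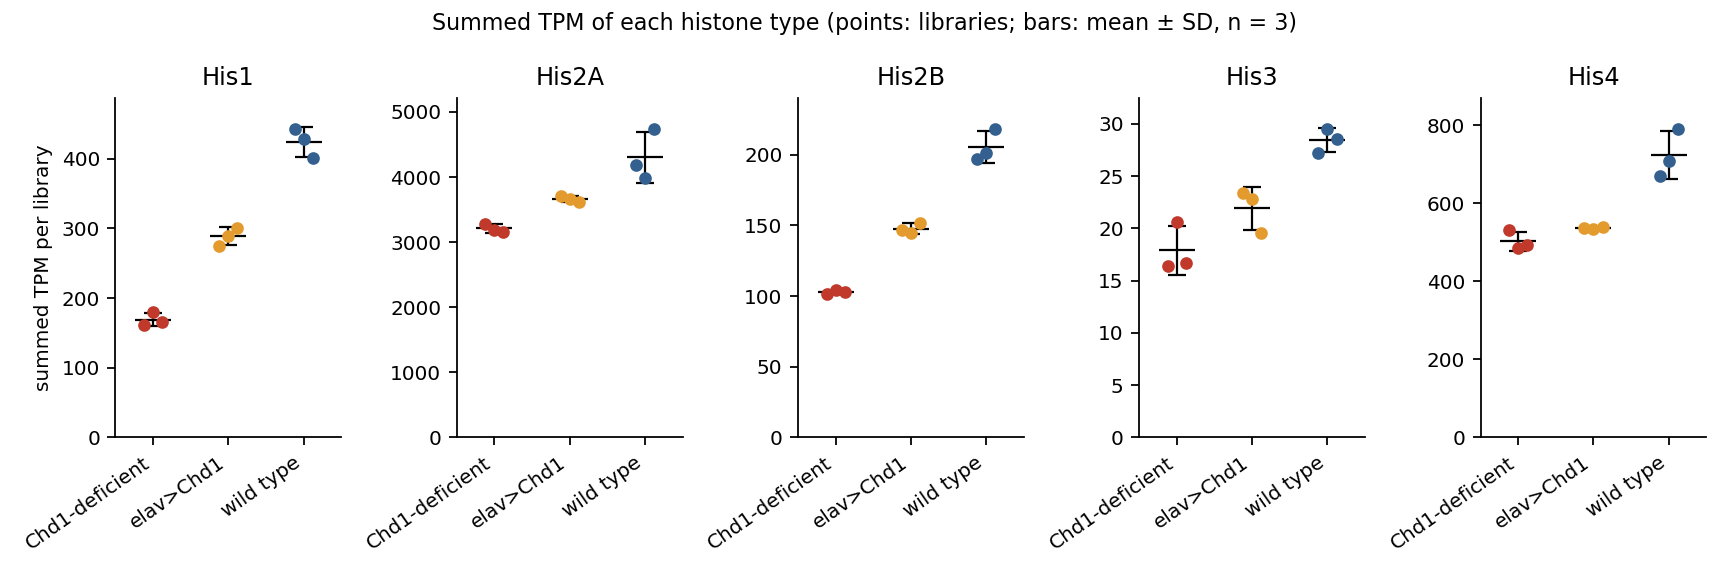
Summed TPM of the copies of each histone type in each library (y axes, all from 0), with Chd1-deficient, elav>Chd1 and wild-type libraries from left to right. Points are libraries and bars the mean ± SD (n = 3); for His1 and His2B the 3 genotypes are separate steps, while for His4 the Chd1-deficient (485 to 531) and elav>Chd1 (535 to 539.7) libraries lie close together.

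All 5 sums were therefore called lower in Chd1-deficient than in wild-type libraries at a limma adjusted p under 0.05, where 46% of the genes of the same table were called lower. Against elav>Chd1, 4 of the 5 were called lower in Chd1-deficient libraries, where 33.8% of the genes were. His2A had a log2 fold change of -0.19 (limma adjusted p = 0.0095) there, His2B of -0.52 (limma adjusted p = 1.3e-06) and His3 of -0.29 (limma adjusted p = 0.018), while His4, at -0.10, missed the threshold (SE 0.06, limma adjusted p = 0.14). The middle 50% of all genes ran from -0.21 to 0.50 in this comparison, and His2A and His4 lay inside that span. The His3 call was lost on leaving out Chd1-deficient library 1 or 3 or elav>Chd1 library 1 or 2 (limma adjusted p = 0.0622 to 0.0759), and His4 passed at a limma adjusted p of 0.031 without wild-type library 3 and of 0.027 with only these 2 genotypes in the fit.

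The remaining comparison sets elav>Chd1 libraries against wild-type libraries. All 5 sums were called lower in elav>Chd1 libraries, where 47.4% of the genes were called lower and the median of all genes was -0.15. The middle 50% of all genes ran from -0.35 to 0.42. The log2 fold changes were -0.55 for His1 (SE 0.05, limma adjusted p = 7.0e-06), -0.23 for His2A (SE 0.05, limma adjusted p = 0.0026), -0.47 for His2B (SE 0.04, limma adjusted p = 4.3e-06), -0.37 for His3 (SE 0.09, limma adjusted p = 0.0040) and -0.42 for His4 (SE 0.06, limma adjusted p = 5.8e-05). With only the copies above 0 in all 9 libraries, which leaves out His1:CG33837 and His1:CG33816 by construction, the His1 value turned to 0.30 (limma adjusted p = 0.156). His2A lay nearest to the median of all genes, and its call was lost when libraries were aligned by median ratios (-0.18, limma adjusted p = 0.059). The comparisons share libraries, so their values are set side by side and not counted as independent.

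The rows of the 5 types were far from equal in level, although the annotated genes of each type are about equally many. His2A made up 80.2 ± 0.0709% of the summed histone TPM in Chd1-deficient libraries, 78.6 ± 0.446% in elav>Chd1 and 75.7 ± 1.15% in wild-type libraries, and His3 made up 0.447 ± 0.0631%, 0.470 ± 0.0413% and 0.502 ± 0.0454% in the same order (SD, n = 3 each). The His2A sum was 154 to 201 times the His3 sum in Chd1-deficient, 159 to 185 times in elav>Chd1 and 135 to 166 times in wild-type libraries. His1 held 4.23 ± 0.292% of the total in Chd1-deficient, 6.19 ± 0.313% in elav>Chd1 and 7.50 ± 0.880% in wild-type libraries. His4 held between 11.5% and 13.2% in every library. Between Chd1-deficient and wild-type libraries the shares of His1, His2A and His2B did not overlap, with an exact two-sided permutation p = 0.1 for each, the smallest p that 3 against 3 libraries allow (0.167 adjusted over the 5 types). The shares of His3 (exact permutation p = 0.3) and His4 (exact permutation p = 0.8) overlapped between these genotypes.

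Within each type 1 copy had the highest mean TPM over the 9 libraries. These were His1:CG33837 (FBgn0053837, 21491541 to 21492563, plus strand), His2A:CG33808 (FBgn0053808, 21433862 to 21434337, plus strand), His2B:CG17949 (FBgn0061209, 21423014 to 21423608, minus strand), His3:CG33803 (FBgn0053803, 21420129 to 21420657, plus strand) and His4:CG33909 (FBgn0053909, 21419531 to 21419943, minus strand), all on 2L in BDGP6.54. Together the 5 summed to 3830, 3689 and 3671 TPM in Chd1-deficient libraries, 4419, 4339 and 4387 TPM in elav>Chd1 and 5242, 5029 and 5904 TPM in wild-type libraries. The other 26 copies together summed to 266, 285 and 271 TPM in Chd1-deficient libraries, 268, 317 and 241 TPM in elav>Chd1 and 279, 319.6 and 272 TPM in wild-type libraries. The ranges of the 26 overlapped among the 3 genotypes, and the 26 hold copies called lower, such as His1:CG33816, beside copies called higher, such as His1:CG33855. The 5 were picked by their level in the same libraries and hold 92.8% to 95.6% of the total, so the split is a description and was not tested.

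Of the 31 copies, 20 passed the filter of at least 1 TPM in at least 3 libraries, 6 were listed at 0 in all 9 libraries and 5 others stayed under the filter. Between Chd1-deficient and wild-type libraries limma called 6 copies higher and 8 lower (adjusted p under 0.05). Of all genes tested, 42.9% were called higher and 46% lower, so the 14 calls among 20 copies are no more than the 88.9% called overall. Against elav>Chd1, 5 copies were called higher and 5 lower in Chd1-deficient libraries (34.7% and 33.7% of all genes, 68.4% in either direction). In elav>Chd1 against wild-type libraries 3 were called higher and 6 lower (30.6% and 47.3% of all genes, 77.9% in either direction). Requiring at least 10 TPM in 3 libraries left 2 higher calls against wild type and 1 against elav>Chd1 in the Chd1-deficient group, and the lower calls stayed at 8 and 5. His1:CG33834 and His2A:CG33832 passed the filter through the Chd1-deficient libraries, where they were high, so their calls could hardly have gone the other way. The same holds in the other direction for His1:CG33837 and His1:CG33816, which reached 1 TPM in 0 and 1 of the Chd1-deficient libraries and in all 6 others. The count of 5 higher calls against elav>Chd1 became 3 without Chd1-deficient library 1, elav>Chd1 library 1 or elav>Chd1 library 2, and 2 without Chd1-deficient library 2.

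His1 copies moved in opposite directions. His1:CG33837 had a listed value of 0 in each Chd1-deficient library, of 81.6, 60.5 and 119 TPM in elav>Chd1 libraries and of 254, 202 and 229.7 TPM in wild-type libraries. It was the leading His1 row in wild type, with 47.2% to 57.5% of the sum, and had none of it in Chd1-deficient libraries. It was called lower by limma in both comparisons of Chd1-deficient libraries (limma adjusted p = 7.3e-11 against wild type and 4.6e-10 against elav>Chd1). It passed the filter only through elav>Chd1 and wild-type libraries, so these calls could hardly have gone the other way. No fold is given against values of 0. In elav>Chd1 libraries it was lower than in wild type, with -1.44 as log2 fold change (SE 0.19, limma adjusted p = 7.1e-05).

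His1:CG33816 was listed at 0, 7.53 and 0 TPM in Chd1-deficient libraries, 37.6, 81.7 and 31.0 TPM in elav>Chd1 and 60.5, 95.3 and 69.0 TPM in wild-type libraries. It too was called lower in Chd1-deficient libraries (limma adjusted p = 9.2e-05 against wild type), and the elav>Chd1 and wild-type ranges overlapped. It passed the filter through elav>Chd1 and wild-type libraries, so this call too could hardly have gone the other way. Added together, His1:CG33837 and His1:CG33816 gave 315, 297 and 299 TPM in the wild-type libraries, a narrower range than either copy had alone. In elav>Chd1 libraries the pair gave 119, 142 and 150.0 TPM.

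A second set of His1 copies was higher in Chd1-deficient libraries. His1:CG33855 (21521616 to 21522638 on 2L) stood at 34.7, 34.2 and 34.5 TPM in Chd1-deficient libraries, 17.0, 20.7 and 22.7 TPM in elav>Chd1 and 4.04, 1.91 and 5.79 TPM in wild-type libraries. The 3 genotypes formed separate steps, in the order opposite to that of the His1 sum. Its log2 fold change was 3.09 for Chd1-deficient against wild type (SE 0.27, limma adjusted p = 1.3e-06), 0.77 against elav>Chd1 (SE 0.27, limma adjusted p = 0.027) and 2.32 for elav>Chd1 against wild type (SE 0.27, limma adjusted p = 3.1e-05). The call against elav>Chd1 was lost when any single Chd1-deficient library, or elav>Chd1 library 1 or 2, was left out (limma adjusted p = 0.0523 to 0.0866), and without a filter on low values (limma adjusted p = 0.0862).

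His1:CG33801, the first copy of the array, stood at 7.74, 8.40 and 8.38 TPM in Chd1-deficient libraries, 2.37, 4.08 and 4.65 TPM in elav>Chd1 and 0.778, 1.26 and 1.61 TPM in wild-type libraries. It followed the same order, and its log2 fold change for Chd1-deficient against wild type was 2.37 (SE 0.22, limma adjusted p = 2.2e-06). His1:CG33834 was low throughout, at 1.28 to 2.61 TPM in Chd1-deficient libraries, 0.181 to 1.59 TPM in elav>Chd1 and 0 to 0.421 TPM in wild-type libraries. These 3 copies, grouped after their values were seen, summed to 44.2 to 45.2 TPM in Chd1-deficient libraries, 19.8 to 28.9 TPM in elav>Chd1 and 3.17 to 7.54 TPM in wild-type libraries.

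His1:CG33813 stood at 54.6, 62.5 and 55.5 TPM in Chd1-deficient libraries, 53.8, 60.7 and 58.7 TPM in elav>Chd1 and 45.9, 46.9 and 44.5 TPM in wild-type libraries. Relative to wild type its log2 fold change was 0.32 in Chd1-deficient (SE 0.06, limma adjusted p = 4.4e-04) and 0.33 in elav>Chd1 libraries (SE 0.06, limma adjusted p = 5.7e-04), and it overlapped between those 2 groups. With His1:CG33837 and His1:CG33816 near 0, it became the leading His1 row in Chd1-deficient libraries, holding 33.5% to 34.7% of the sum, against 19.5% to 21.0% in elav>Chd1 and 10.4% to 11.1% in wild type.

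Another 3 His1 rows varied widely between libraries of 1 genotype. His1:CG33852 stood at 16.5, 20.2 and 19.5 TPM in Chd1-deficient libraries, 27.4, 58.3 and 0 TPM in elav>Chd1 and 7.80, 54.7 and 0 TPM in wild-type libraries. His1:CG33810 stood at 18.9, 17.3 and 19.8 TPM in Chd1-deficient, at 25.5, 6e-06 and 28.8 TPM in elav>Chd1 and at 32.1, 11.0 and 23.4 TPM in wild-type libraries. His1:CG33822 ran from 24.8 to 26.9 TPM in Chd1-deficient, from 3.07 to 33.0 TPM in elav>Chd1 and from 12.6 to 34.5 TPM in wild-type libraries. In library 2 of elav>Chd1 and of wild type His1:CG33852 was at its highest and the other rows at their lowest for the genotype. Chd1-deficient library 2 had the highest His1:CG33852 and the lowest His1:CG33810 too, over a narrower range, but His1:CG33822 was at its highest there. The sum of the 3 rows was 61.6, 64.4 and 64.1 TPM in Chd1-deficient libraries, 79.4, 61.4 and 61.7 TPM in elav>Chd1 libraries and 74.3, 78.3 and 48.6 TPM in wild-type libraries, so in wild type the sum varied as well. None of the 3 was called in any comparison.

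**Figure D3:**
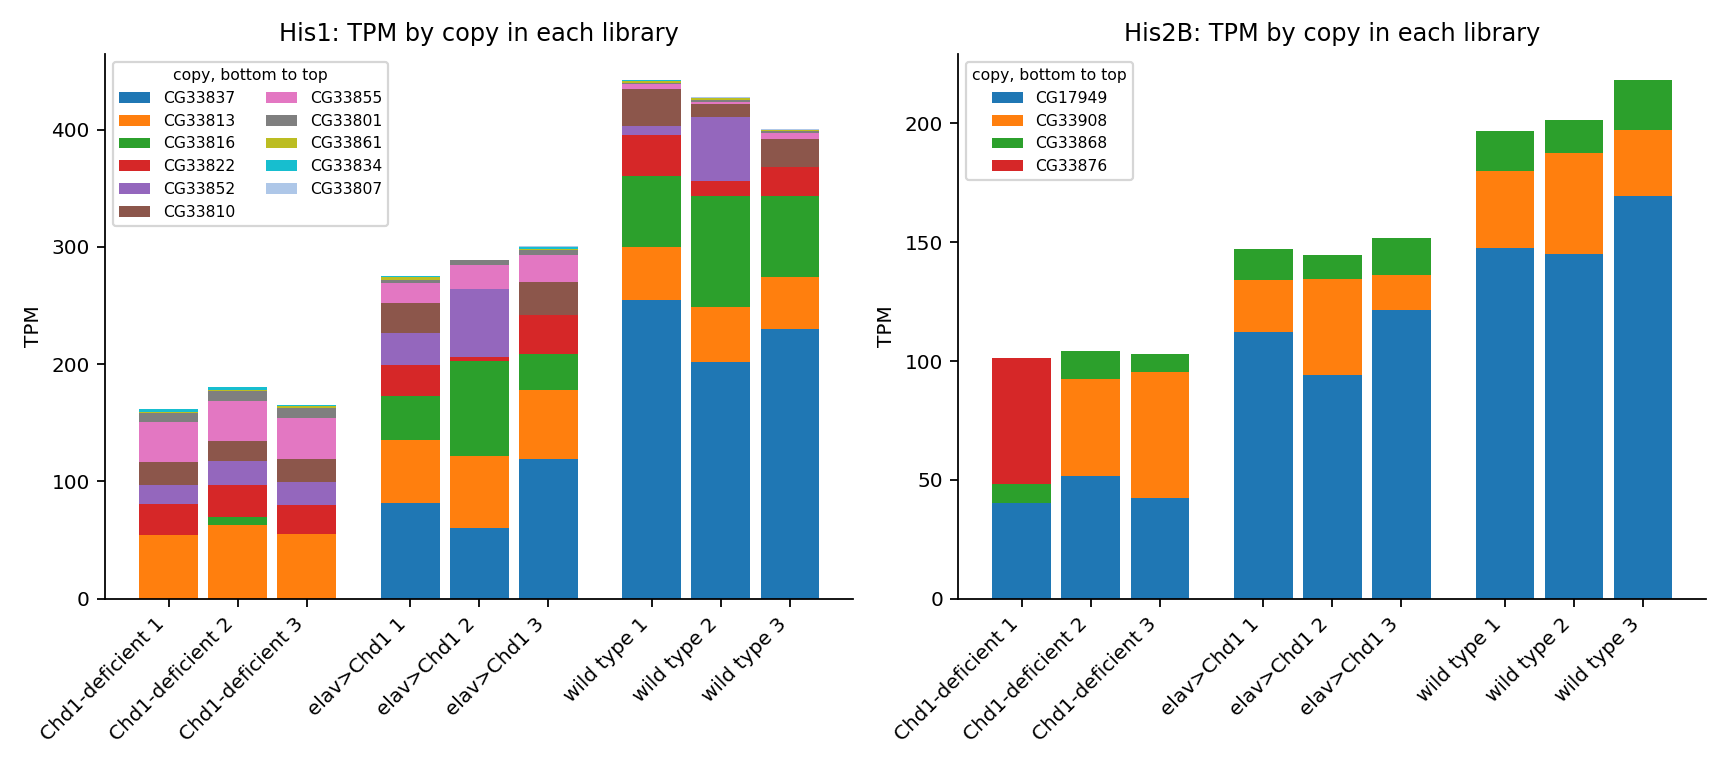
TPM of each His1 copy (left) and each His2B copy (right), stacked in every library on axes from 0, with Chd1-deficient, elav>Chd1 and wild-type libraries from left to right. His1:CG33837, the bottom segment in wild type (202 to 254 TPM), is missing from the Chd1-deficient bars, and the His2B bars of Chd1-deficient libraries are equally high (101 to 104 TPM) although library 1 holds His2B:CG33876 in place of His2B:CG33908.

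His2A was carried by 1 row. His2A:CG33808, with 476 bases the shortest annotated His2A copy, held 99.6% to 99.98% of the His2A sum in every library, so its levels (3279, 3172 and 3157 TPM in Chd1-deficient libraries, 3698, 3657 and 3614 TPM in elav>Chd1, 4181, 3981 and 4732 TPM in wild type) repeat those of the sum. Its log2 fold change for Chd1-deficient against wild type was -0.42 (SE 0.05, limma adjusted p = 2.3e-05). His2A:CG33832 was present at 6.10, 10.2 and 6.20 TPM in Chd1-deficient libraries, while in elav>Chd1 it was listed at 0, 3.85 and 0 and in wild type at 0, 0 and 5.46 TPM. It was called higher in Chd1-deficient than in wild-type libraries (limma adjusted p = 0.024). It passed the filter through the Chd1-deficient libraries, where it was high, so this call could hardly have gone the other way. The call was lost without Chd1-deficient library 2 or wild-type library 1 or 2 (limma adjusted p = 0.0664 to 0.0887) or without a filter (limma adjusted p = 0.0815). His2A:CG33853 stayed at 0.712 to 3.38 TPM in all libraries, and His2A:CG33814 was above 0 only in elav>Chd1 library 1 (3.95 TPM).

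Of the His2B rows, His2B:CG17949 carried the difference. It stood at 40.1, 51.7 and 42.3 TPM in Chd1-deficient libraries, 112, 94.2 and 121 TPM in elav>Chd1 and 147, 145 and 169.5 TPM in wild-type libraries. The genotypes did not overlap, and the log2 fold changes of Chd1-deficient libraries were -1.78 against wild type (SE 0.11, limma adjusted p = 1.1e-07) and -1.28 against elav>Chd1 (SE 0.11, limma adjusted p = 2.8e-06). His2B:CG33868, the copy of this type at the high-coordinate end of the array, was lower in Chd1-deficient than in wild-type libraries as well, at 7.77 to 12.0 against 13.8 to 20.9 TPM (log2 fold change -0.86, SE 0.20, limma adjusted p = 0.0020).

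The remaining His2B signal changed rows from library to library. His2B:CG33908 was listed at 0, 40.5 and 52.9 TPM in Chd1-deficient libraries, 22.1, 40.5 and 15.0 TPM in elav>Chd1 and 32.3, 42.3 and 27.9 TPM in wild-type libraries. His2B:CG33876 was above 0 in a single library, the Chd1-deficient library in which His2B:CG33908 was at 0, with 52.9 TPM. Their sum was 52.9, 40.5 and 52.9 TPM in the Chd1-deficient libraries. The authors' deposited table lists His2B:CG33876 for Chd1-deficient against wild type at 23.8 on the log2 scale (SE 4.71) with an adjusted p of 7.65e-07, which by the TPM files rests on 1 of 9 libraries. His2B:CG33882, His2B:CG33904 and His2B:CG33910 were listed at 0 in all 9.

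The 2 His3 rows moved apart. His3:CG33803 stood at 11.0, 13.3 and 10.2 TPM in Chd1-deficient libraries, 20.9, 20.2 and 17.3 TPM in elav>Chd1 and 25.8, 27.7 and 24.8 TPM in wild-type libraries. It was lowest in Chd1-deficient libraries with no overlap between genotypes (log2 fold change -1.16 against wild type, SE 0.10, limma adjusted p = 1.3e-06). His3:CG33818 stood at 5.39, 7.27 and 6.52 TPM in Chd1-deficient libraries, 2.45, 2.67 and 2.24 TPM in elav>Chd1 and 1.41, 1.84 and 3.74 TPM in wild-type libraries. It was higher in Chd1-deficient libraries than in either other genotype (log2 fold change 1.36 against wild type, SE 0.24, limma adjusted p = 3.2e-04, and 1.22 against elav>Chd1, SE 0.24, limma adjusted p = 0.0013), whose ranges overlapped. His3:CG33803 therefore held 61.0% to 67.1% of the His3 sum in Chd1-deficient, 88.3% to 89.5% in elav>Chd1 and 86.9% to 94.8% in wild-type libraries.

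The His4 rows kept their proportions. His4:CG33909 stood at 500.0, 452 and 461 TPM in Chd1-deficient libraries, 507, 506 and 515 TPM in elav>Chd1 and 633, 674 and 748 TPM in wild-type libraries, which is 93.2% to 95.4% of the His4 sum in every library. Its log2 fold change was -0.54 for Chd1-deficient against wild type (SE 0.06, limma adjusted p = 5.5e-06). His4:CG33899 stood at 30.1, 32.7 and 31.7 TPM in Chd1-deficient libraries, 30.7, 28.4 and 24.4 TPM in elav>Chd1 and 36.4, 34.6 and 42.3 TPM in wild-type libraries. It was lower in Chd1-deficient than in wild-type libraries, with -0.25 as log2 fold change (SE 0.09, limma adjusted p = 0.022), a call lost without Chd1-deficient library 1 (limma adjusted p = 0.073) or wild-type library 3 (limma adjusted p = 0.081), without a filter (limma adjusted p = 0.061) or with median-ratio scaling (limma adjusted p = 0.057). His4:CG33875 and His4:CG33881 stayed under 1 TPM, and His4:CG33869 and His4:CG33907 were listed at 0 in all 9 libraries.

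**Figure D4:**
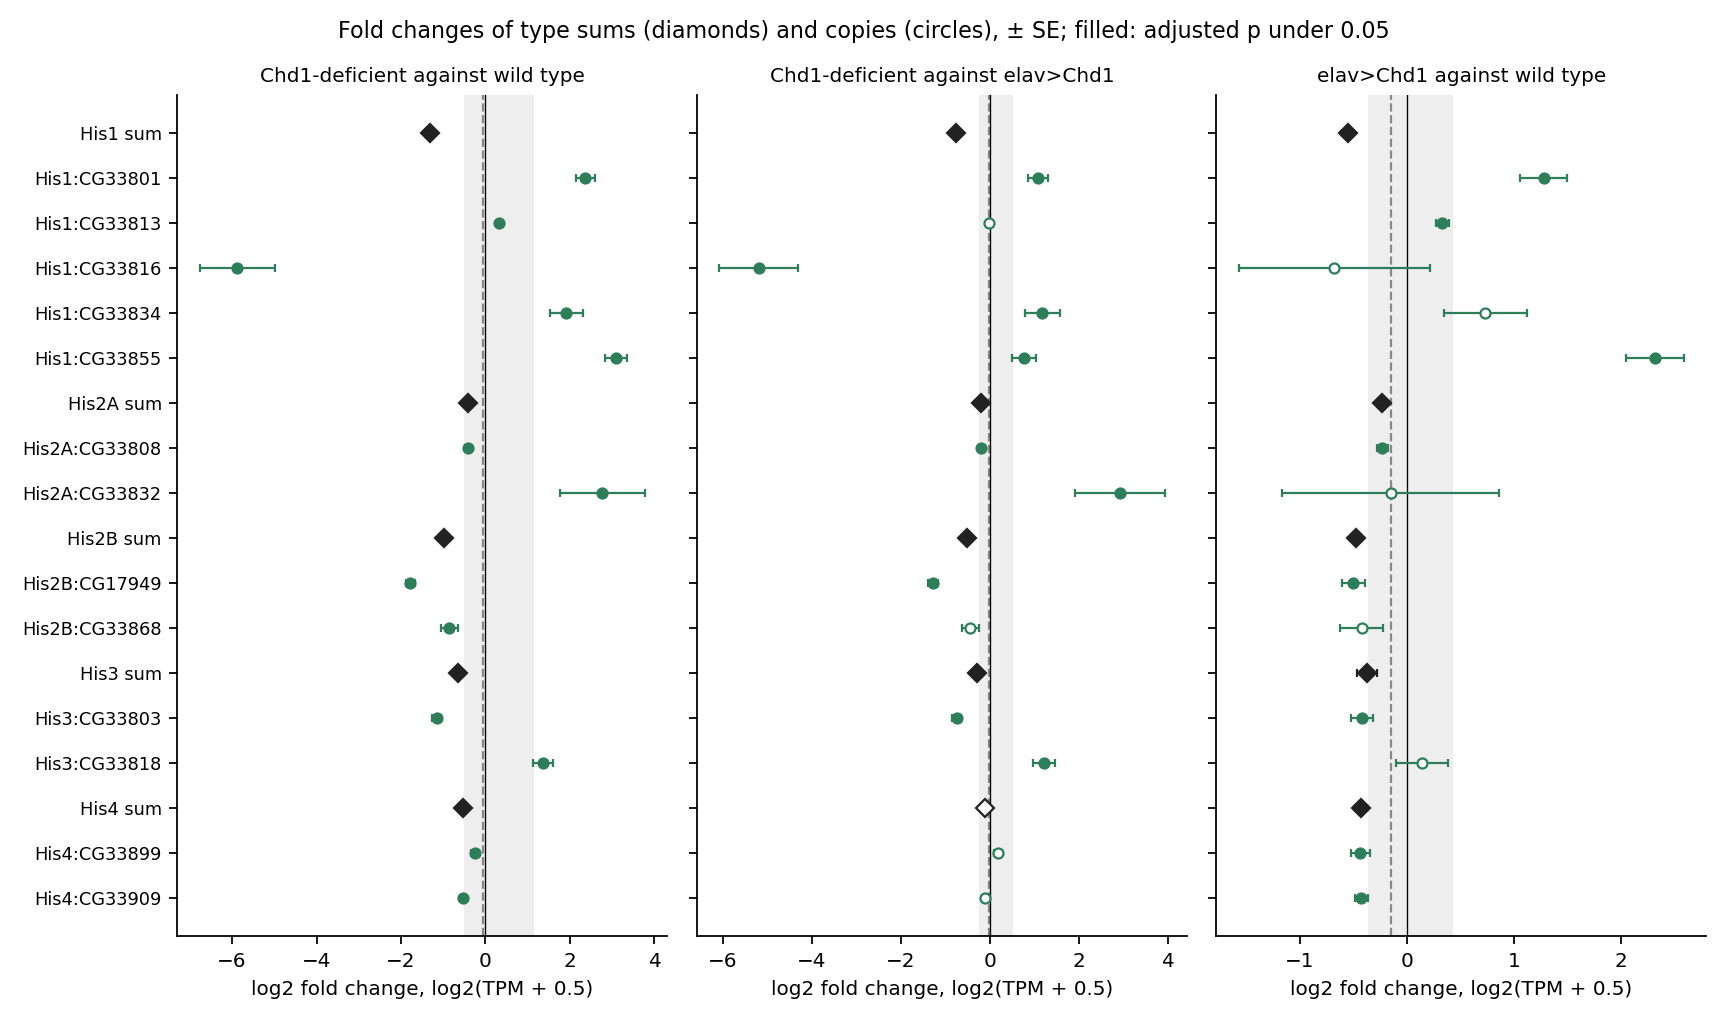
Log2 fold changes ± SE on the log2(TPM + 0.5) scale (x axis) of the 5 type sums (diamonds) and of the copies called in Chd1-deficient against wild-type libraries (circles), in the 3 comparisons; filled symbols have a limma adjusted p under 0.05, the dashed line is the median of all genes and the grey band their middle 50%. His1:CG33837 is left out because it was listed at 0 in the Chd1-deficient libraries, and the fitted value of His1:CG33816 depends on the pseudocount because it was at 0 in 2 of them; the sums lie left of 0 while copies of His1, His2A and His3 lie on both sides in Chd1-deficient against wild-type libraries. The x axes differ between panels.

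Copies of His1, in elav>Chd1 and wild-type libraries, and copies of His2B mostly varied more between libraries of a genotype than their sums did. Over the 39 combinations of a copy and a genotype with a mean of at least 10 TPM, the coefficient of variation had a median of 11.5% and reached 173%. It was above that of the copy's own type sum in 32 of the 39, and above 30% in 11. The 15 type sums ranged from 0.421% (His4 in elav>Chd1) to 13.2% (His3 in Chd1-deficient). A copy exceeded its own type sum in 15 of 18 combinations for His1 and 9 of 9 for His2B. The counts were 1 of 3 for His2A, 3 of 3 for His3 and 4 of 6 for His4. Those above 30% were 8 of His1 and 3 of His2B, with 0 in each other type. The 8 of His1 were all in elav>Chd1 or wild-type libraries. In Chd1-deficient libraries the His1 copies ran from 0.775% to 10.6%, beside 5.74% for the His1 sum. What the division of reads among near-identical copies adds to this spread was not tested.

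The authors' deposited tables, whose title lines give a log2 fold change limit of 1 (the smallest listed size is 0.9999), hold 8 of the 31 copies for Chd1-deficient against wild type, 5 higher and 3 lower, and 5 copies for Chd1-deficient against elav>Chd1, 3 higher and 2 lower. Of all 5307 genes listed against wild type, 5069 were higher and 238 lower. Of all 3546 listed against elav>Chd1, 3276 were higher and 270 lower. The fit here tested 7 of the 8 copies and gave each the authors' sign, as it did for 4 of 4 in the second table. For His1:CG33837 the authors' deposited table gives -26.5 (SE 2.88), a value against libraries listed at 0. For His2B:CG17949 the authors' deposited tables give -1.71 (SE 0.187) against wild type and -1.27 (SE 0.188) against elav>Chd1. Copies of His2A and His4 are in neither list.

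Genes that act with the histone genes were lower in Chd1-deficient libraries too. Of 11 genes of the histone locus body and of histone gene transcription, all 11 were called lower than in wild type (median log2 fold change -0.65), where 46% of all genes were; against elav>Chd1 all 11 were called lower too (median -0.24), where 33.7% of all genes were. FLASH, a scaffold protein of the locus body, averaged 11.6 ± 0.623 TPM in Chd1-deficient libraries, 15.0 ± 0.265 TPM in elav>Chd1 and 21.2 ± 1.75 TPM in wild-type libraries. CycE, the cyclin that drives entry into S phase, averaged 135.9 ± 3.73, 164 ± 2.20 and 232 ± 16.2 TPM in the same order. All 8 genes of histone 3′ end formation were called lower (median -0.71, against the same 46% of all genes), among them the nuclease Cpsf73 at 25.1 ± 0.643 TPM in Chd1-deficient libraries, 38.4 ± 1.09 TPM in elav>Chd1 and 49.8 ± 3.23 TPM in wild-type libraries, and its partner Cpsf100 at 17.0 ± 0.557, 23.0 ± 1.54 and 32.1 ± 1.88 TPM. Slbp, which binds the histone stem-loop and is named here outside the rule, averaged 174 ± 4.02 TPM in Chd1-deficient libraries, 200.5 ± 9.79 TPM in elav>Chd1 and 235 ± 8.41 TPM in wild-type libraries (SD, n = 3 each).

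All 26 measured genes of DNA replication were called lower in Chd1-deficient than in wild-type libraries, where 46% of all genes were called lower and 88.9% in either direction. Their log2 fold changes lay between -0.90 and -0.47, with a median of -0.71. Mcm2, a subunit of the replicative helicase, averaged 70.9 ± 3.20 TPM in Chd1-deficient libraries, 87.0 ± 2.12 TPM in elav>Chd1 and 132.6 ± 11.0 TPM in wild-type libraries, and DNApol-alpha73, a subunit of the polymerase that starts new strands, averaged 44.9 ± 1.63, 57.9 ± 1.65 and 80.9 ± 1.96 TPM. Against elav>Chd1, 21 of the 26 were called lower and none higher (median -0.21), beside 33.7% of all genes called lower. In elav>Chd1 against wild-type libraries all 26 were called lower (median -0.48), beside 47.3% of all genes. The sums of His2A, His3 and His4, at -0.42, -0.66 and -0.52 for Chd1-deficient against wild type, lay above the span of this list for His2A and within it for His3 and His4, and those of His1 (-1.32) and His2B (-0.99) lay below it. Of the 11 ovary markers 8 were called lower and 3 higher in Chd1-deficient against wild-type libraries (46% and 42.9% of all genes), with a median of -0.61.

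Histone variants are encoded by genes outside the array. Of the 6 measured, 5 were called lower and none higher in Chd1-deficient than in wild-type libraries (median -0.38), where 46% of all genes were called lower. BigH1, the linker histone of the germline and early embryo, averaged 396.5 ± 22.5 TPM in Chd1-deficient libraries, 435.8 ± 11.2 TPM in elav>Chd1 and 606 ± 17.3 TPM in wild-type libraries. It exceeded the His1 sum in every library, and its log2 fold change of -0.61 for Chd1-deficient against wild type (SE 0.04, limma adjusted p = 2.3e-07) was smaller in size than that of His1; the difference between them was not tested. The centromeric H3 variant cid had a log2 fold change of -0.65 there (limma adjusted p = 2.0e-07), and His2Av, the H2A variant, one of -0.42 (SE 0.03, limma adjusted p = 9.7e-08), at 948 ± 10.6 TPM in Chd1-deficient against 1270 ± 26.1 TPM in wild-type libraries. The H3.3 genes fell by 0.35 (His3.3A) and 0.24 (His3.3B) in this comparison, and both stood far above the His3 sum, at 380.3 ± 4.70 and 747 ± 17.2 TPM in Chd1-deficient and 484 ± 5.12 and 884 ± 18.8 TPM in wild-type libraries. The His3 sum rests on rows for 2 of 23 annotated genes and the His1 sum on 12 of 23. Whether poly(A)+ RNA was selected is not said either, so levels of variants and array genes cannot be ranked from these sums. His4r, a replacement H4 gene outside the array, averaged 1140 ± 17.8 TPM in Chd1-deficient libraries, 1217 ± 29.0 TPM in elav>Chd1 and 1128 ± 48.5 TPM in wild-type libraries, and was not called between Chd1-deficient and wild type (log2 fold change 0.02, limma adjusted p = 0.69), where the array's His4 sum was lower.

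**Figure D5:**
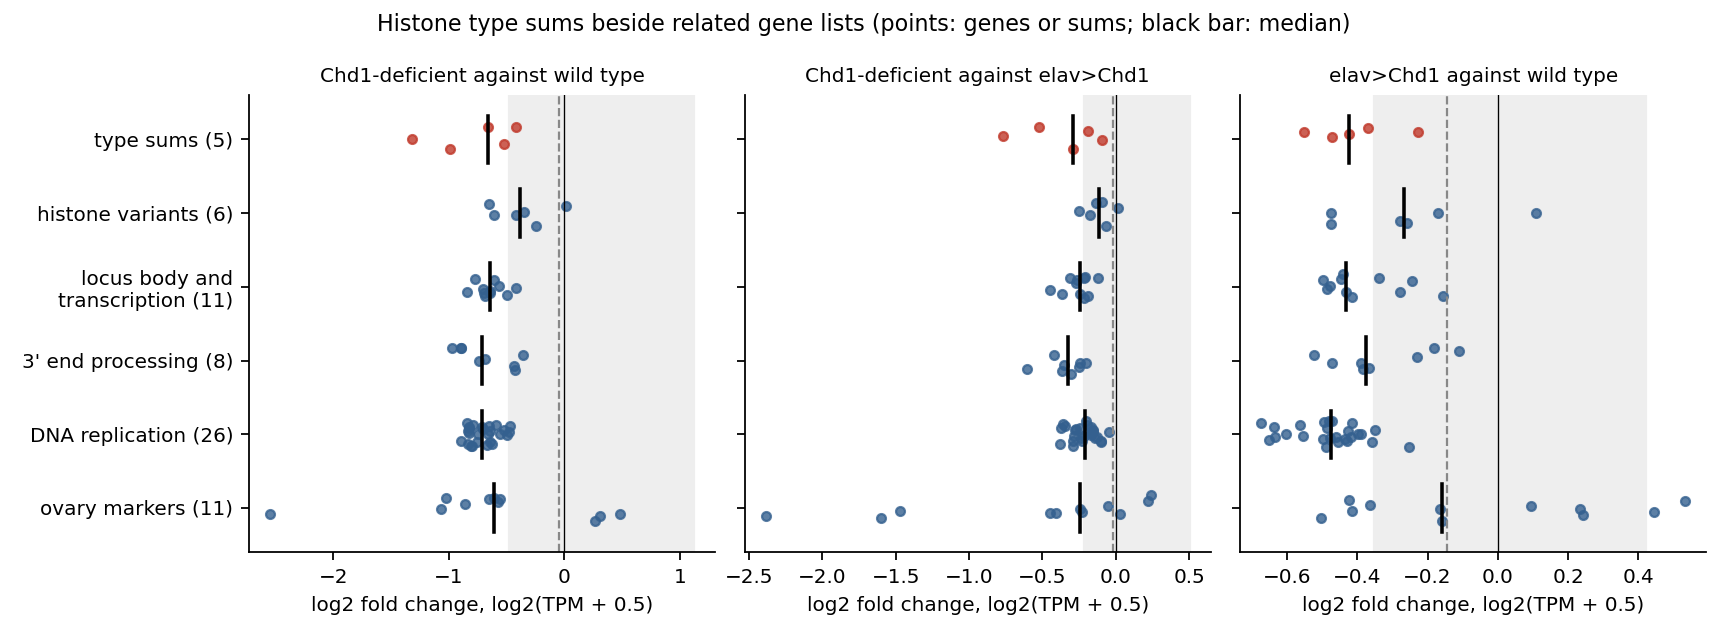
Log2 fold changes on the log2(TPM + 0.5) scale (x axis) of the 5 histone type sums (red) and of the genes of related lists (blue) in the 3 comparisons, with the number of points beside each list, black bars at the medians, a dashed line at the median of all genes and a grey band over their middle 50%. In Chd1-deficient against wild-type libraries the replication genes lie between -0.90 and -0.47, and the His1 (-1.32) and His2B (-0.99) sums lie to their left; the x axes differ between panels.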

How the data were processed

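RNA libraries of 9 samples, 3 per genotype, were matched to genotypes by their titles. The authors deposited 1 file of TPM per library; Salmon and DESeq2 are named, without versions or roles, in the submitters' processing notes, and the sources used here name no genome build. Also deposited by the authors are 2 tables that give log2 fold changes, standard errors, p-values and adjusted p-values, a test score (fold change over error) and a mean normalised signal, under column names that DESeq2 uses.

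The log2(TPM + 0.5) values of the 9 libraries entered 1 limma-trend fit with a mean per genotype. P-values were adjusted (Benjamini-Hochberg) over the 11094 genes that reached 1 TPM in 3 or more libraries, at a threshold of 0.05. For type sums, the copies were replaced by the 5 sums and their total (11080 features tested). Shares were compared by exact two-sided permutation over libraries. The fit was checked on simulated TPM in which few genes changed and noise was normal on the log2 scale. That check does not cover data in which most genes change, nor copies that switch between 0 and high values. Fold changes on this scale understate changes of low genes.

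The members and lists were chosen with earlier results of these data known. Named by rule were, per type, the highest 2 copies and the largest rise and fall, all histone variants, and 2 genes of each other list; other copies and genes were named after their values were seen. In the replication list 26 of 27 names matched a row. Alternatives: filters, pseudocounts, scaling, 2-group fits, replicate block, each library left out, partial sums. Tools were R 4.3.3, limma 3.58.1, Python 3.11.15, pandas 2.3.3 and matplotlib 3.10.9, with Ensembl release 115.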

Additional observations from a re-analysis of the deposited data

How the results depend on the processing

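Depth is unknown and 3 libraries per genotype limit the precision. The type sums kept direction and side of the threshold with at least 10 TPM in 3 libraries, with pseudocounts of 0.1 and 1, and with the replicate block. Between Chd1-deficient and elav>Chd1 libraries the His3 sum lost its call without a filter (-0.29, limma adjusted p = 0.0514), and over the fits leaving out 1 library it ran from -0.39 to -0.23. The His4 sum there was called with only 2 genotypes in the fit (-0.10) and ran from -0.14 to -0.071 with 1 library left out. Median-ratio scaling removed the call of His2A for elav>Chd1 against wild type (-0.18). For copies called higher in Chd1-deficient libraries, the count against elav>Chd1 was 5, and became 2 with no filter, 1 with at least 10 TPM, 4 with a pseudocount of 0.1 and 2 to 5 with 1 library left out; that against wild type was 2 with at least 10 TPM.

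Restricting sums to copies above 0 in all 9 libraries leaves out His1:CG33837 and His1:CG33816 by construction and turned His1 to 0.60 in Chd1-deficient against wild-type libraries, past the threshold in the other direction (limma adjusted p = 0.0106), to 0.29 in Chd1-deficient against elav>Chd1 libraries (limma adjusted p = 0.18) and to 0.30 in elav>Chd1 against wild-type libraries (limma adjusted p = 0.156). The copies were selected on the same values, so these p-values are no test of the direction. Sums without the highest copy of each type, chosen after seeing the data, became for Chd1-deficient against wild type -0.19 (His1), 1.33 (His2A), 0.18 (His2B), 1.36 (His3), -0.24 (His4) and -0.079 (total). For Chd1-deficient against elav>Chd1 they became -0.25 (His1), 0.91 (His2A), 0.61 (His2B), 1.22 (His3), 0.19 (His4) and 0.0037 (total), and for elav>Chd1 against wild type 0.051 (His1), 0.42 (His2A), 0.14 (His3) and -0.083 (total). Without its highest copy His2A kept only 6.81 to 11.9 TPM in Chd1-deficient and 0.993 to 6.82 TPM in wild-type libraries. His3 was then His3:CG33818 alone, at 5.39 to 7.27 and 1.41 to 3.74 TPM. Their values above describe these low rows and not the whole type. The His4 share differed by -0.462 to 0.0913 percentage points between Chd1-deficient and wild type, and the His3 share by -0.0590 to 0.00065 between Chd1-deficient and elav>Chd1, with 1 library left out. The cause of these changes was not tested.

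Correlations of same-numbered libraries' deviations were weak, from -0.155 to 0.108. For Chd1-deficient against elav>Chd1 they ran from 0.037 to 0.108, and 5 of 6 libraries correlated best with their own number. This was so for 1 of 6 in Chd1-deficient against wild type and for 3 of 6 in elav>Chd1 against wild type. With the replicate block the counts of called copies were again 6 higher and 8 lower, 5 and 5, and 3 and 6 in the 3 comparisons.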
